A study of Mus musculus with 24 samples.

Results

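Metallothioneins and zinc transport are described here through 6 genes of mouse liver, 2 metallothioneins (Mt1 and Mt2), 2 zinc importers (Slc39a14 and Slc39a4) and 2 members of the zinc exporter family (Slc30a1 and Slc30a10). They were chosen by name, as the lines with these gene symbols in the count file of each library, and all 6 were found among 50657 gene symbols. The choice was made with earlier results of these data known, so counts of the 6 beside shares of all genes are descriptions. All 6 were among the 13204 genes with enough counts to be tested. RNA was sequenced in bulk from livers of single mice in an experiment with acetaminophen, a drug that injures hepatocytes at high dose. The 8 groups, of 3 mice each, were KO mice, which lack Egfr in hepatocytes, and WT mice, each at 0, 1, 3 and 12 h of acetaminophen at 500 mg/kg. The labels do not give the Cre line or promoter behind the deletion, the strain, the sex or the age, and they do not say whether the 0 h mice received anything. All mice of 1, 3 and 12 h had the drug and each time has its own mice, so drug, time of day and handling cannot be told apart. Livers of 6 h and 24 h, named in the series text, are not analysed here.

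Metallothioneins are small cysteine-rich proteins that bind zinc and copper and also react with oxidants and with electrophiles such as the reactive metabolite of acetaminophen. In hepatocytes zinc enters the cytosol through transporters of the SLC39 (ZIP) family and leaves it through those of the SLC30 (ZnT) family, and free zinc activates MTF1, a transcription factor that binds metal response elements in the promoters of Mt1, Mt2 and Slc30a1. Metallothionein genes are also induced in liver by glucocorticoids and, together with Slc39a14, by interleukin 6 in the acute phase response.

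The promoters of both metallothioneins and of Slc30a1 are shown because these are the textbook targets of MTF1. RefSeq windows of 300 bases on build GRCm38.p6, from 250 bases before to 50 bases after the annotated start, were matched by symbol for 4 of the 6 genes. All 4 lie on the plus strand: Mt1 at chr8:94178839-94179138, Mt2 at chr8:94172368-94172667, Slc30a1 at chr1:191906531-191906830 and Slc30a10 at chr1:185454598-185454897. Capitals mark matches to the core of the metal response element, searched on both strands as TGCACNC or TGCGCNC.
Mt1: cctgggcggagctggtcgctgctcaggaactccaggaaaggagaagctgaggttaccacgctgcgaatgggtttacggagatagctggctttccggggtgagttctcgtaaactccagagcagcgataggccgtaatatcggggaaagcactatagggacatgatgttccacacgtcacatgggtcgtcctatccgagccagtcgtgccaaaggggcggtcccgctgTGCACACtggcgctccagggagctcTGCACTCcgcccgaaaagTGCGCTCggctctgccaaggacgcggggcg
Mt2: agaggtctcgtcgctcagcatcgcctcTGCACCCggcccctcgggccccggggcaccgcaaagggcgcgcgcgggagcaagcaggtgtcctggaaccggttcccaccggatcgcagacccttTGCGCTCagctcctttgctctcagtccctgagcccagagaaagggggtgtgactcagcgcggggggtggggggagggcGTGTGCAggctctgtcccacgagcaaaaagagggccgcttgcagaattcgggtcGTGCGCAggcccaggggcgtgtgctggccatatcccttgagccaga
Slc30a1: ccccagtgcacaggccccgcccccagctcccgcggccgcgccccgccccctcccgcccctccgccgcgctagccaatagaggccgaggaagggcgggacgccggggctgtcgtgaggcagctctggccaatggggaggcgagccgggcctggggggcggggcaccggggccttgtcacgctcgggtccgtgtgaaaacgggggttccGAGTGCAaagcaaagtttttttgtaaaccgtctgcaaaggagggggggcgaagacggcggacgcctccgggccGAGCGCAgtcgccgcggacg
The Mt1 window holds 3 such matches, starting at positions -23, 3 and 21 from the annotated start, and the Mt2 window holds 4, at -223, -128, -50 and 5. Slc30a1 has 2, at -43 and 31. The Slc30a10 window has 3, of which those at -233 and -232 overlap each other on opposite strands and the other lies at -73. Of all 32851 windows in the table, 25.7% hold at least 1 match, 7.11% at least 2, 1.97% at least 3 and 0.517% at least 4. The core of the antioxidant response element, TGACNNNGC, occurs once in the Mt2 window (-79) and once in that of Slc30a1 (-82), and in 12.4% of all windows. A glucocorticoid half-site pair, ACANNNTGT, occurs once in the Mt1 window (-92), where the match reads the same on both strands, and in 6.85% of all windows. The windows depend on the annotation, since in GENCODE M21, also on GRCm38, the nearest start lies 7 bases before the RefSeq one for Mt1 and 46 bases after it for Mt2. Other GENCODE transcripts start 122 and 152 bases after it for Mt1 and 242 bases after it for Mt2, and windows placed on those starts would hold other bases and other positions of a match.

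The libraries held between 3.54 and 7.58 M counts on genes, and 39.6% to 50.4% of them were mitochondrial ribosomal RNA, which left 1.75 to 4.37 M counts for other genes. The mitochondrial share was 44.8% to 50.4% in the 6 libraries of 12 h and 39.6% to 43.2% in all others. Levels below are in CPM, counts relative to the total of the library, with totals scaled by TMM, a correction for composition, whose factors were 0.81 to 0.97 at 12 h and at least 1.0 at the other times. Egfr averaged 82.4 ± 25.3 CPM in KO livers and 393 ± 63.9 CPM in WT livers at 0 h (SD, n = 3 each). It averaged 209 ± 110 CPM in KO and 380 ± 41.6 CPM in WT livers at 1 h. It averaged 179 ± 94.4 CPM in KO and 464 ± 165 CPM in WT livers at 3 h and 75.4 ± 38.0 CPM in KO and 223 ± 33.9 CPM in WT livers at 12 h. KO 3 h replicate 3, at 271 CPM, lay below each WT 3 h liver (303 to 633 CPM) but above each WT 12 h liver (203 to 263 CPM). Egfr stood at 335 CPM in the library labelled KO 1 h replicate 1, above the lowest WT 1 h library (332 CPM). Several 1 h results of Mt1, Mt2, Slc39a4 and Slc30a10 that use that library are therefore also given without it. Hepatocyte markers were high in each library, with Alb at 17003 CPM or more. Of 10 pancreatic acinar markers Prss2 and Try4 were at 0 in all 24 libraries, Cela1 was at 1.02 to 3.49 CPM in each, and the other 7 did not exceed 1.05 CPM. No neutrophil marker exceeded 2.78 CPM. In whole liver, fewer cells of a type and less RNA per cell cannot be told apart.

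Both metallothioneins rose in both genotypes and had the largest changes of the 6 genes at 3 and 12 h. At 12 h Mt2 stood 11.9-fold above 0 h in KO livers and 8.83-fold above 0 h in WT livers. Mt1 stood 9.45-fold above 0 h in KO livers and 6.14-fold above 0 h in WT livers. KO livers had like mean levels at 1 and 3 h and higher ones at 12 h, while WT livers had lower means than KO livers at 1 h and their highest means at 3 h. A call below means an adjusted p under 0.05 in edgeR's quasi-likelihood test with Benjamini-Hochberg adjustment over all 13204 genes.

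**Figure D1:**
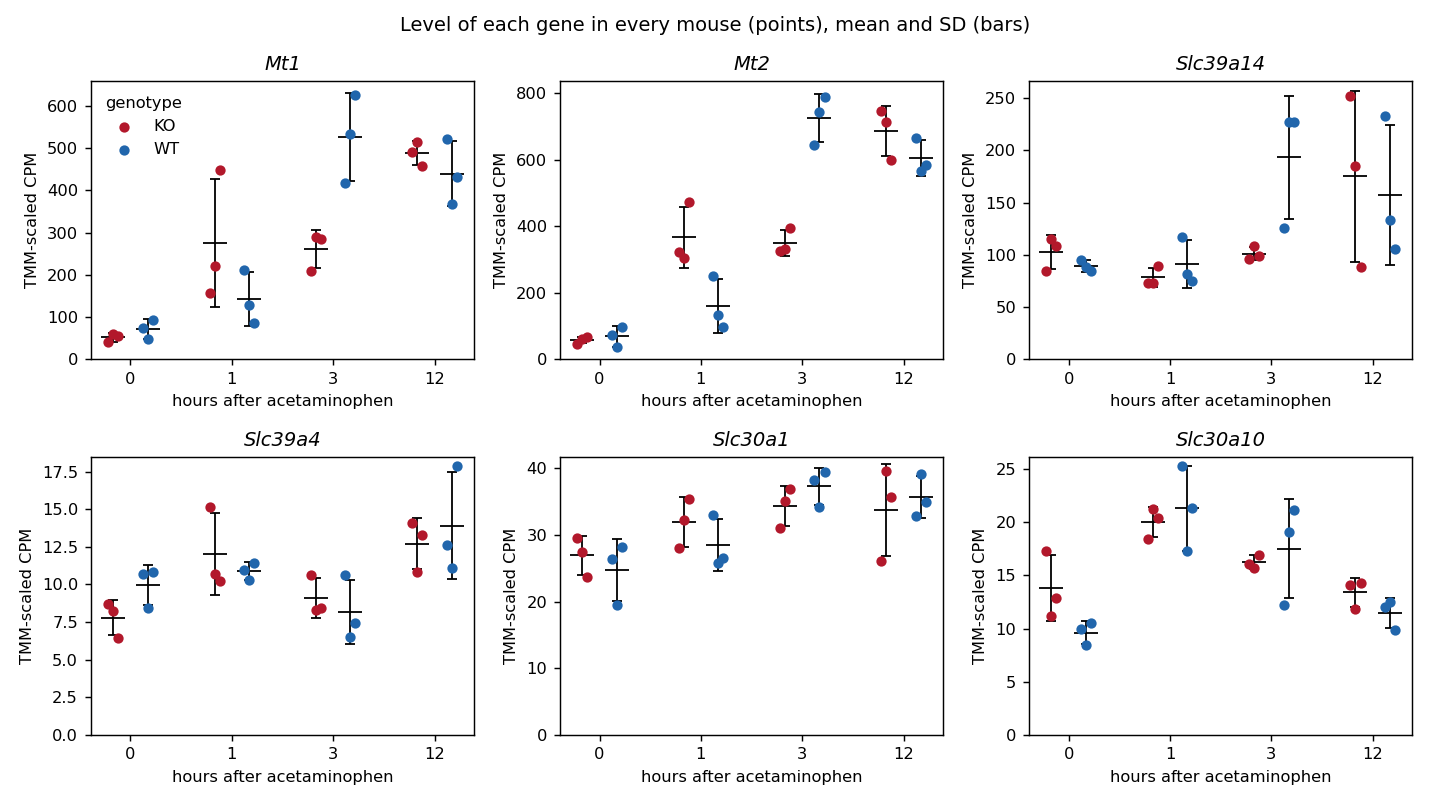
Level of each of the 6 genes in CPM (vertical axis, from 0) by hours of acetaminophen (horizontal axis), with KO livers in red on the left and WT livers in blue on the right at each time; points are single mice, bars the mean and SD of 3 mice. Mt1 and Mt2 climb in both genotypes, with all 3 KO livers below all 3 WT livers at 3 h, while Slc39a4, Slc30a1 and Slc30a10 move over narrower ranges.

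At 0 h Mt1 was at 39.9, 59.4 and 55.4 CPM in the 3 KO livers and at 74.2, 46.9 and 92.5 CPM in the 3 WT livers. At 1 h it was at 157, 221 and 448 CPM in KO livers and at 211, 129 and 84.8 CPM in WT livers. At 3 h it was at 209, 289 and 286 CPM in KO livers and at 418, 534 and 626 CPM in WT livers. At 12 h the KO livers had 491, 514 and 458 CPM and the WT livers 521, 368 and 431 CPM. The genotypes overlapped at 0, 1 and 12 h, and at 3 h all KO livers lay below all WT livers.

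Mt2 was at 46.5, 61.0 and 65.8 CPM in KO livers and at 72.1, 35.7 and 96.6 CPM in WT livers at 0 h. At 1 h it was at 324, 305 and 473 CPM in KO livers and at 251, 133 and 95.8 CPM in WT livers, so that all KO livers lay above all WT livers. At 3 h the order was the opposite, with 324, 333 and 396 CPM in KO livers and 645, 744 and 788 CPM in WT livers. At 12 h the KO livers had 746, 713 and 601 CPM and the WT livers 667, 567 and 584 CPM, and the genotypes overlapped. Because Mt1 and Mt2 are close copies, reads that could come from either may have been counted as multimapping or ambiguous, and the split between them is uncertain.

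In KO livers at 1 h, 4 of the 6 genes were called higher than at 0 h, where 3.95% of all tested genes were. Mt1 had a log2 fold change of 2.42 ± 0.38 (SE; adjusted p = 0.000601, edgeR) and Mt2 one of 2.67 ± 0.33 (adjusted p = 5.97e-05). Without the library labelled KO 1 h replicate 1 the values were 2.71 and 2.76, with adjusted p of 0.000193 and 0.000155. In a fit of the KO 0 h and 1 h libraries alone, the call of Mt1 was lost (adjusted p = 0.062). In KO livers at 3 h, 2 of the 6 genes were called higher, against 5.11% of all genes: Mt1 by 2.34 ± 0.38 (adjusted p = 0.000773) and Mt2 by 2.60 ± 0.33 (adjusted p = 6.65e-05). At 12 h 3 of the 6 were called higher in KO livers, against 15.1% of all genes, with Mt1 at 3.24 ± 0.39 (adjusted p = 8.66e-06) and Mt2 at 3.57 ± 0.35 (adjusted p = 5.21e-07).

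In WT livers at 1 h, 2 of the 6 genes were called higher than at 0 h, against 4.09% of all genes, and of the metallothioneins Mt2 alone passed, by 1.22 ± 0.32 on the log2 scale (adjusted p = 0.0252, edgeR). The lowest WT 1 h liver, at 95.8 CPM, lay just under the highest WT 0 h liver, at 96.6 CPM, and the call was lost in 3 of 6 fits that each left out 1 library (highest adjusted p = 0.144, without WT 1 h replicate 1) and in a fit of the 2 groups alone (adjusted p = 0.333). Mt1 had a change of 0.99 ± 0.37 at 1 h in WT livers (adjusted p = 0.124). At 3 h 5 of the 6 genes were called higher in WT livers, against 7.28% of all genes, led by Mt2 at 3.40 ± 0.34 (adjusted p = 3.71e-06) and Mt1 at 2.88 ± 0.38 (adjusted p = 8.20e-05). At 12 h 3 of the 6 were called, against 13.4% of all genes, with Mt2 at 3.14 ± 0.34 (adjusted p = 1.89e-06) and Mt1 at 2.62 ± 0.38 (adjusted p = 6.73e-05). The responses of a genotype at its 3 later times share the same 0 h mice and are not independent.

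**Figure D2:**
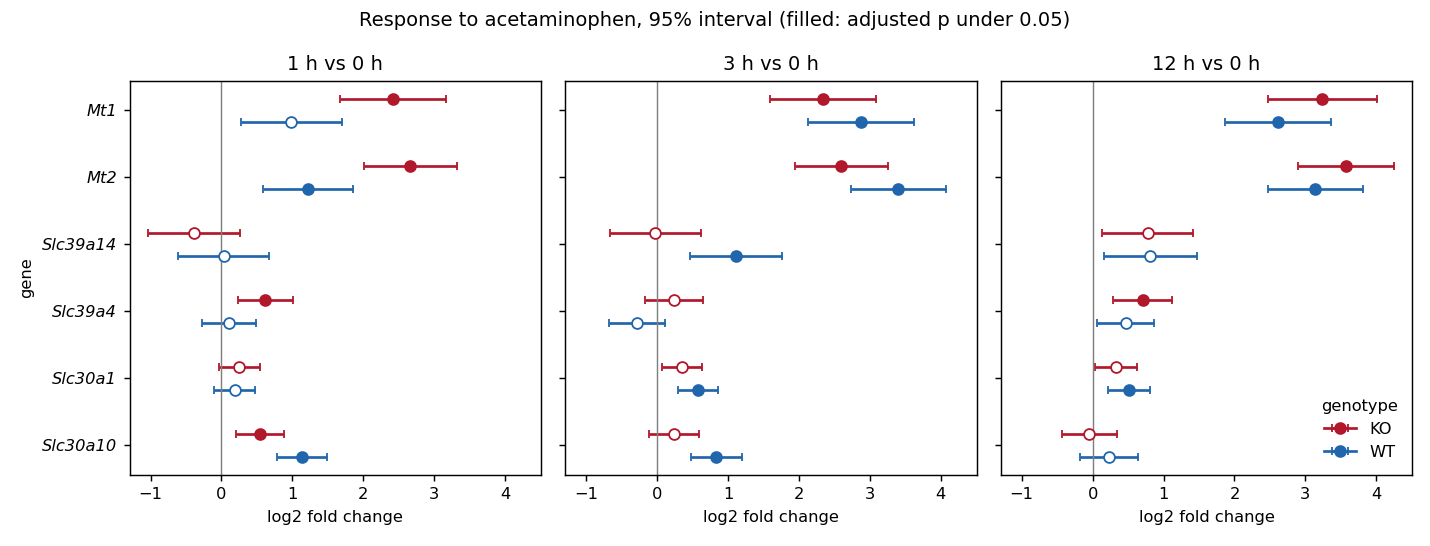
Log2 fold change against 0 h (horizontal axis) at 1, 3 and 12 h for the 6 genes, KO in red above WT in blue, with 95% intervals; filled points have an adjusted p under 0.05. At 3 and 12 h Mt1 and Mt2 lie farthest to the right, and the largest change is that of Mt2 in KO livers at 12 h (3.57); in WT livers at 1 h Slc30a10 (1.13) lies beside Mt1 (0.99) and Mt2 (1.22).

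Steps between later times do not use the 0 h mice. In WT livers 2 of the 6 genes were called higher at 3 h than at 1 h, against 3.17% of all genes. These were Mt2, by 2.18 ± 0.32 (adjusted p = 0.000634, edgeR), and Mt1, by 1.89 ± 0.37 (adjusted p = 0.00503). The Mt1 call was lost when WT 3 h replicates 2 and 3 were left out together (1.55, adjusted p = 0.153). In KO livers the same step was -0.07 ± 0.31 for Mt2 (adjusted p = 0.99) and -0.08 ± 0.36 for Mt1 (adjusted p = 0.99). Without the library labelled KO 1 h replicate 1 it was -0.14 for Mt2 (adjusted p = 0.981) and -0.35 for Mt1 (adjusted p = 0.95). For that step in KO livers edgeR called 0% of the tested genes and none of the 6, while 958 genes had an unadjusted p under 0.05 and DESeq2 called 10. Between 3 and 12 h Mt2 changed by 0.97 ± 0.31 in KO livers (adjusted p = 0.0504) and by -0.26 ± 0.31 in WT livers (adjusted p = 0.657), and Mt1 by 0.90 ± 0.36 in KO livers (adjusted p = 0.117) and by -0.26 ± 0.35 in WT livers (adjusted p = 0.712). None of the 6 genes was called in KO livers for that later step by edgeR, where 12.9% of all genes were; in a fit of those 2 groups alone both metallothioneins passed, and in DESeq2 Mt2 did (adjusted p = 0.00801).

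The difference between these steps was tested after the levels had been seen. The step from 1 to 3 h was smaller in KO than in WT livers for Mt2, by -2.25 ± 0.44 on the log2 scale (adjusted p = 0.0162, edgeR), where 0.704% of all genes were called in this direction. For Mt1 the difference was -1.97 ± 0.51 (adjusted p = 0.0639 in edgeR and 0.00725 in DESeq2). Leaving out the library labelled KO 1 h replicate 1 gave -2.32 for Mt2 (adjusted p = 0.0252) and -2.24 for Mt1 (adjusted p = 0.0311). Mt2 no longer passed when WT 3 h replicate 3 (adjusted p = 0.0571) or KO 3 h replicate 2 (adjusted p = 0.0525) was left out, or WT 3 h replicates 2 and 3 together, where the difference was -2.07 (adjusted p = 0.182). For the step from 3 to 12 h the difference was 1.23 ± 0.44 for Mt2 (adjusted p = 0.321) and 1.16 ± 0.50 for Mt1 (adjusted p = 0.44), with 0.144% of all genes called in either direction and none of the 6.

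Set directly against each other at one time, KO and WT livers gave no call among the 6 genes in edgeR at any of the 4 times, with an unadjusted p under 0.05 for 1, 2, 3 and 0 of them at 0, 1, 3 and 12 h. Of all tested genes, 0.0151%, 0.492%, 0.977% and 0.053% were called at 0, 1, 3 and 12 h. Libraries of the genotypes did not overlap for 1 of the 6 genes at 0 h (Slc30a10, higher in KO), 1 at 1 h (Mt2, higher in KO), 3 at 3 h (Mt1, Mt2 and Slc39a14, lower in KO) and none at 12 h. Over all genes such a separation with KO higher occurred in 7.08%, 7.17%, 7.63% and 7.13% at these times, and with KO lower in 7.29%, 7.72%, 7.89% and 7.38%. At 3 h Mt2 was at 351 ± 39.0 CPM in KO livers and 726 ± 73.2 CPM in WT livers (SD, n = 3 each), a log2 difference of -1.05 ± 0.31 (adjusted p = 0.165). Mt1 was at 261 ± 45.3 CPM in KO livers and 526 ± 104 CPM in WT livers, a difference of -1.01 ± 0.36 (adjusted p = 0.285). At 1 h Mt2 was at 367 ± 91.9 CPM in KO livers and 160 ± 81.0 CPM in WT livers, a difference of 1.20 ± 0.32 (adjusted p = 0.121). Without the library labelled KO 1 h replicate 1 the 1 h difference was 1.28 for Mt2 (adjusted p = 0.129) and 1.24 for Mt1 (adjusted p = 0.149). DESeq2 called Mt2 at 1 h (adjusted p = 0.00416) and at 3 h (adjusted p = 0.0146), and a fit of the 2 groups alone called both Mt2 and Mt1 at 3 h (adjusted p = 0.00633 and 0.0236). At 0 h the difference was -0.25 ± 0.32 for Mt2 and -0.47 ± 0.37 for Mt1, and at 12 h it was 0.18 ± 0.31 for Mt2 and 0.15 ± 0.36 for Mt1. The difference of the responses from 0 h was not called for any of the 6 genes at 1, 3 or 12 h by edgeR, where 0.454%, 0.151% and 0.0227% of all genes were; for Mt2 it was 1.44 ± 0.45 at 1 h (adjusted p = 0.195), which DESeq2 called (adjusted p = 0.0374). Without the library labelled KO 1 h replicate 1 that response difference was 1.53 for Mt2 (adjusted p = 0.19) and 1.71 for Mt1 (adjusted p = 0.135).

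**Figure D3:**
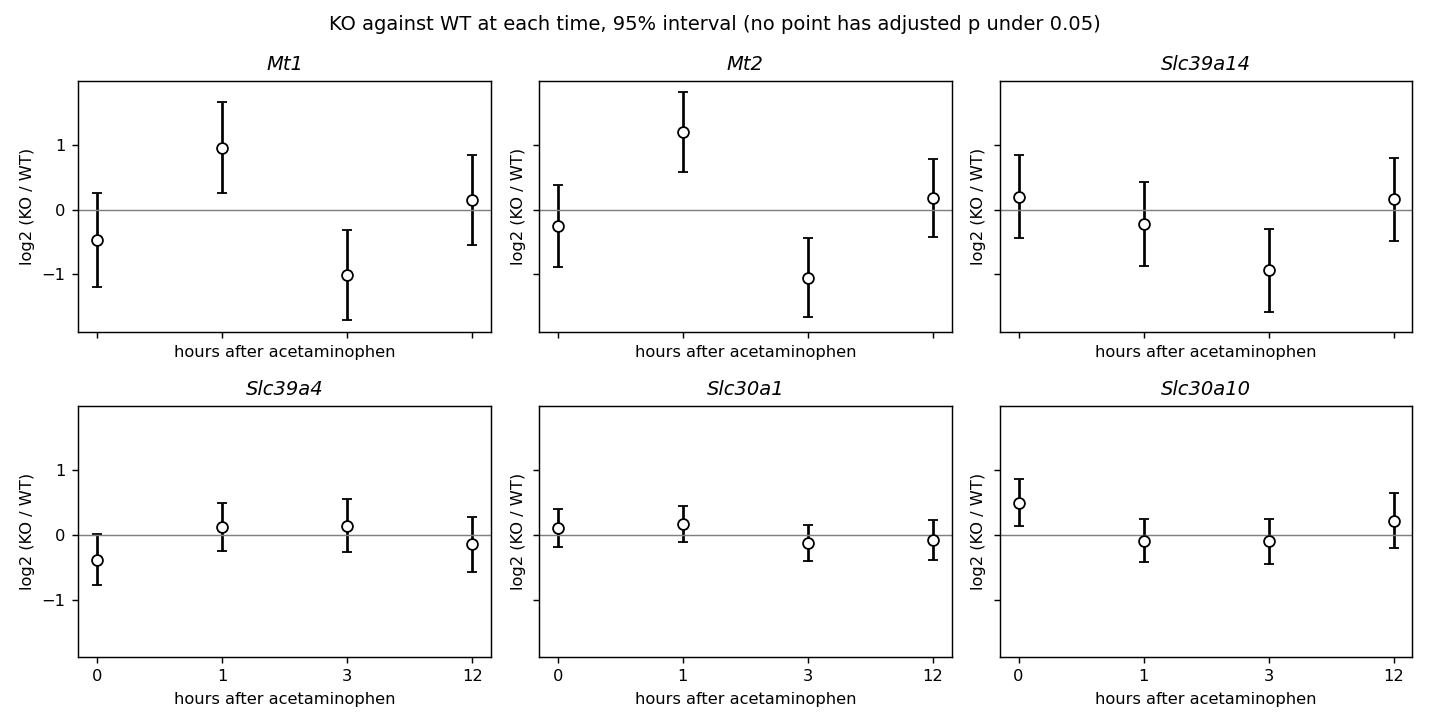
Log2 ratio of KO to WT livers (vertical axis) for each of the 6 genes by hours of acetaminophen (horizontal axis), with 95% intervals. For Mt1 and Mt2 the ratio is above 0 at 1 h (0.96 and 1.20) and below 0 at 3 h (-1.01 and -1.05), and no point has an adjusted p under 0.05.

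The count of Mt2 per count of Mt1 was also higher at 12 h than at 0 h, with the same doubt about how reads were split. The ratio averaged 1.41 ± 0.11 in KO and 1.39 ± 0.14 in WT livers at 12 h (SD, n = 3 each), against 1.13 ± 0.09 in KO and 0.93 ± 0.15 in WT livers at 0 h. Within each genotype the 3 livers of 12 h lay above the 3 of 0 h. At 1 h it was 2.06, 1.38 and 1.06 in KO livers and 1.19, 1.03 and 1.13 in WT livers, and the highest of all 24 values was that of the library labelled KO 1 h replicate 1. At 3 h it was 1.55, 1.15 and 1.38 in KO livers and 1.55, 1.39 and 1.26 in WT livers. The third KO liver of 1 h and the second of 3 h lay within the KO range of 0 h (1.03 to 1.19), and the second WT liver of 1 h within the WT range (0.76 to 1.04). The summed level of the pair was 612 ± 74.6 CPM in KO and 1252 ± 177 CPM in WT livers at 3 h, against 109 ± 19.8 CPM in KO and 139 ± 53.6 CPM in WT livers at 0 h. Over the 24 libraries the log2 levels of Mt1 and Mt2 had a Pearson correlation of 0.986, a description in which the libraries share groups and depth.

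At 3 h the WT livers were not alike in other genes. Of a list of 15 genes of interleukin 6 signalling and the acute phase, 13 were called higher in WT livers at 3 h than at 0 h. Over all genes that share was 7.28%. Called lower in KO than in WT livers at 3 h were 11 of the 15, as were 0.651% of all genes. The median log2 change of the 15 genes was 1.71 for the WT response at 3 h (0.00 over all genes tested). For KO against WT at 3 h it was -1.54 (-0.01 over all genes). Averaged over the list, log2(CPM + 1) was 8.78 in WT 3 h replicates 2 and 3 and 6.03 in WT 3 h replicate 1, against 5.74 to 6.50 in KO 3 h livers. WT 3 h replicate 1, without that acute phase level, had 418 CPM of Mt1 and 645 CPM of Mt2, above each KO 3 h liver. With WT 3 h replicates 2 and 3 left out, WT 3 h replicate 1 was the only liver of its group. The WT response at 3 h was then 3.23 for Mt2 and 2.54 for Mt1, and the KO against WT difference was -0.87 for Mt2 and -0.66 for Mt1. The part of the acute phase level in the metallothionein levels was not tested.

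The same livers also differed in markers of other cells. Of 5 red blood cell genes 3 were called lower in KO than in WT livers at 3 h, with a summed level of 42.2 to 59.3 CPM in KO and 80.1 to 331 CPM in WT livers. Of all genes 0.651% were called in that direction. Of 10 Kupffer cell markers 1 was called lower in KO at 3 h, with sums of 57.9 to 78.7 CPM in KO and 77.4 to 174 CPM in WT livers, and 6 were called lower in WT livers at 1 h (59.5 to 67.0 CPM) than at 0 h (81.8 to 155 CPM), where 4% of all genes were. None of these markers was at 0 in any of the 24 libraries. At 1 h Mt2 was higher in each KO liver. The Kupffer sums at that time were 110, 78.1 and 76.4 CPM in KO and 59.5, 67.0 and 64.6 CPM in WT livers. No marker was called between the genotypes at 1 h, where 0.492% of all genes were. The 110 CPM is that of the library labelled KO 1 h replicate 1. At 12 h, where both metallothioneins were high in each liver, the sum of 5 cholangiocyte markers was 33.9 to 126 CPM in KO and 109 to 221 CPM in WT livers, against 18.8 to 20.6 CPM in KO and 19.1 to 24.6 CPM in WT livers at 0 h. Of these Sox9 reached 204 CPM and rose at 12 h in both genotypes, by 2.53 in KO (adjusted p = 0.000201, edgeR) and 3.78 in WT livers (adjusted p = 3.60e-06). The neutrophil sums at 12 h were 2.05 to 3.19 CPM in KO and 2.33 to 6.11 CPM in WT livers, against at most 0.158 CPM in KO and 1.26 CPM in WT livers at 0 h. The Kupffer sums at 12 h were 81.3 to 117 CPM in KO and 99.6 to 120 CPM in WT livers. The part of these cell markers in the metallothionein levels was not tested.

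**Figure D4:**
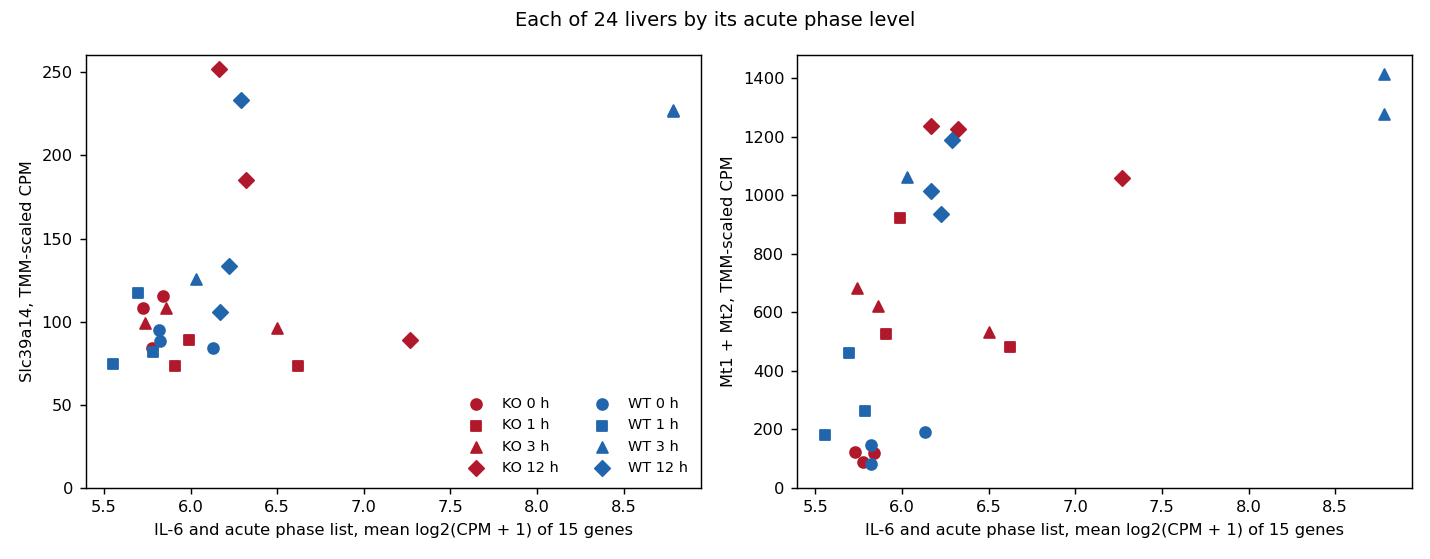
Each of 24 livers by the mean log2(CPM + 1) of 15 genes of interleukin 6 signalling and the acute phase (horizontal axis) and by the level of Slc39a14 (left) or the sum of Mt1 and Mt2 (right), in CPM from 0; KO livers are red, WT livers blue, and the symbol gives the time. WT 3 h replicates 2 and 3 stand alone at 8.78, and their Slc39a14 points (both 227 CPM) coincide, while the livers of 12 h, at 6.17 to 7.27, have sums of Mt1 and Mt2 between 935 and 1237 CPM.

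Slc39a14 encodes ZIP14, an importer of zinc, iron and manganese at the hepatocyte surface. It rose in WT livers at 3 h and was not called by edgeR in KO livers at any time. At 0 h it was at 84.4, 115 and 108 CPM in KO livers and at 95, 88.5 and 84.3 CPM in WT livers, and at 1 h at 73.3, 73.1 and 88.9 CPM in KO and 117, 81.6 and 74.5 CPM in WT livers. At 3 h it was at 96.0, 108 and 99.1 CPM in KO livers and at 126, 227 and 227 CPM in WT livers. At 12 h the livers of each genotype spread widely, with 252, 185 and 88.7 CPM in KO and 233, 134 and 106 CPM in WT livers. The genotypes overlapped at 0, 1 and 12 h, and at 3 h all KO livers lay below all WT livers.

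The change of Slc39a14 at 3 h was -0.02 ± 0.33 on the log2 scale in KO livers (adjusted p = 0.978, edgeR) and 1.11 ± 0.33 in WT livers (adjusted p = 0.0317). The WT call passed in 1 of 6 fits that each left out 1 library, the one without WT 3 h replicate 1. Without the 2 livers with the high acute phase level, which leaves 1 WT 3 h liver, the WT change was 0.49. The part of the acute phase level in this change was not tested. KO against WT at 3 h gave -0.93 ± 0.33 (adjusted p = 0.281), and the difference of the responses was -1.14 ± 0.46 (adjusted p = 0.476). At 12 h the change from 0 h was 0.78 ± 0.33 in KO livers (adjusted p = 0.0904) and 0.82 ± 0.33 in WT livers (adjusted p = 0.0836), and DESeq2 called both (adjusted p = 0.0303 in KO and 0.0251 in WT livers). KO 12 h replicate 3, the library with the fewest counts, had 88.7 CPM of Slc39a14 at an acute phase level of 7.27, the highest outside the WT 3 h pair.

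Slc39a4 encodes ZIP4, the importer that takes up dietary zinc in the intestine. It was a low gene in these livers, with 32 to 87 counts in a library, and it rose in KO livers at 1 and 12 h. At 0 h it was at 8.71, 8.21 and 6.46 CPM in KO livers and at 10.7, 8.41 and 10.8 CPM in WT livers. At 1 h it was at 15.2, 10.7 and 10.2 CPM in KO livers and at 11.0, 10.3 and 11.4 CPM in WT livers. At 3 h the values were 10.6, 8.28 and 8.40 CPM in KO and 10.6, 6.50 and 7.41 CPM in WT livers, and at 12 h they were 14.1, 10.8 and 13.3 CPM in KO and 12.7, 11.1 and 17.9 CPM in WT livers. The genotypes overlapped at each time.

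The KO change of Slc39a4 was 0.62 ± 0.20 at 1 h (adjusted p = 0.0496, edgeR) and 0.71 ± 0.21 at 12 h (adjusted p = 0.013). Without the library labelled KO 1 h replicate 1, the 1 h change was 0.45 (adjusted p = 0.198), and that call was lost in 5 of 6 fits that each left out 1 library and in DESeq2 (adjusted p = 0.0683). The call at 12 h was lost in 2 of 6 such fits (highest adjusted p = 0.0695). The WT change was 0.11 ± 0.19 at 1 h (adjusted p = 0.828) and 0.47 ± 0.20 at 12 h (adjusted p = 0.0924). Between 3 and 12 h it rose in WT livers by 0.75 ± 0.21 (adjusted p = 0.0155), where 7.43% of all genes were called higher; it was lost in 3 of 6 fits that each left out 1 library (highest adjusted p = 0.197), and without WT 3 h replicates 2 and 3 the change was 0.39 (adjusted p = 0.493). With library size alone as the scaling, which moved the median of all genes at 12 h by -0.26 in KO and -0.36 in WT livers, the KO change at 12 h was 0.45 (adjusted p = 0.0983). Of 8 intestinal markers Cdx1 and Cdx2 did not exceed 0.293 CPM in any library, Lypd8 0.631 CPM and Vil1 0.946 CPM. Muc13 reached 1.56 CPM, and Muc2 reached 2.44 CPM and was at 0 in 2 libraries. Fabp2 and Lgals4, which the intestine shares with other tissues, were detected in each library.

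Slc30a1 encodes ZnT1, the exporter that moves zinc out of the cell across the plasma membrane. It rose by less than the metallothioneins and was called in WT livers at 3 and 12 h. At 0 h it was at 29.6, 27.5 and 23.7 CPM in KO livers and at 26.4, 19.5 and 28.2 CPM in WT livers, and at 1 h at 28.1, 32.3 and 35.4 CPM in KO and 32.9, 25.8 and 26.6 CPM in WT livers. At 3 h it was at 31.1, 35.1 and 36.9 CPM in KO livers and at 38.3, 34.1 and 39.4 CPM in WT livers. At 12 h it was at 26.1, 39.6 and 35.6 CPM in KO livers and at 32.9, 39.2 and 35 CPM in WT livers. At 3 h all livers of each genotype lay above all of its 0 h livers, and at 12 h this held for WT livers, while KO 12 h replicate 1 fell within the KO 0 h range. Over all genes that share was 15% in KO and 14.2% in WT livers at 3 h, and 19.8% in WT livers at 12 h.

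The WT change of Slc30a1 was 0.58 ± 0.15 at 3 h (adjusted p = 0.00633, edgeR) and 0.52 ± 0.15 at 12 h (adjusted p = 0.0118). Without WT 3 h replicates 2 and 3 the first was 0.62 (adjusted p = 0.0569). With library size alone the second was 0.16 (adjusted p = 0.488), and it was also lost without 1 WT library at a time in 2 of 6 fits (highest adjusted p = 0.0629). The KO change was 0.35 ± 0.15 at 3 h (adjusted p = 0.133) and 0.33 ± 0.15 at 12 h (adjusted p = 0.101). Between the genotypes the log2 difference was at most 0.17 in size at the 4 times, with 95% intervals that lay within -0.41 and 0.45. At 1 h, where the difference uses the library labelled KO 1 h replicate 1, it was 0.09 to 0.29 when 1 library at a time was left out. Over the 24 libraries the log2 level of Slc30a1 had a Pearson correlation of 0.78 with that of Mt1 and 0.79 with that of Mt2, given as a description.

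Slc30a10, named in the zinc exporter family, encodes a transporter that exports manganese from hepatocytes. It rose at 1 h in both genotypes, and at 12 h its change from 0 h was -0.05 ± 0.20 in KO livers and 0.23 ± 0.21 in WT livers, with no call. At 0 h it was at 17.3, 11.2 and 12.9 CPM in KO livers and at 9.92, 8.41 and 10.5 CPM in WT livers, so that all KO livers lay above all WT livers. At 1 h it was at 18.5, 21.2 and 20.4 CPM in KO livers and at 25.3, 17.3 and 21.3 CPM in WT livers. At 3 h it was at 16.0, 15.7 and 17.0 CPM in KO and 12.3, 19.1 and 21.1 CPM in WT livers, and at 12 h at 14.1, 11.8 and 14.3 CPM in KO and 12.0, 12.5 and 9.86 CPM in WT livers. The genotypes overlapped at 1, 3 and 12 h.

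At 1 h Slc30a10 rose by 0.55 ± 0.17 in KO livers (adjusted p = 0.0476, edgeR) and by 1.13 ± 0.18 in WT livers (adjusted p = 7.20e-05). The KO call held without the library labelled KO 1 h replicate 1 (0.62, adjusted p = 0.0377) and was lost in 4 of 6 fits that each left out 1 library (highest adjusted p = 0.201) and in DESeq2 (adjusted p = 0.0726). The WT call held in all 6 such fits (highest adjusted p = 0.00151). The difference of the responses was -0.59 ± 0.25 (adjusted p = 0.37; -0.53 and 0.452 without the library labelled KO 1 h replicate 1), beside a difference at 0 h of 0.50 ± 0.19 (adjusted p = 0.442). At 3 h the change was 0.24 ± 0.18 in KO livers (adjusted p = 0.457) and 0.84 ± 0.19 in WT livers (adjusted p = 0.00217), and without WT 3 h replicates 2 and 3 it was 0.33 in WT livers (adjusted p = 0.486). Between 3 and 12 h it fell in WT livers by 0.60 on the log2 scale (adjusted p = 0.0419), where 5.38% of all genes were called lower, and the libraries overlapped. That call was lost in 5 of 6 fits that each left out 1 library, in DESeq2 (adjusted p = 0.065) and without WT 3 h replicates 2 and 3 (-0.11, adjusted p = 0.88).

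Ordered by mean level, Mt2 ran through KO 0 h (57.8 CPM), WT 0 h (68.1), WT 1 h (160), KO 3 h (351), KO 1 h (367), WT 12 h (606), KO 12 h (686) and WT 3 h (726 CPM). Its neighbours in this order, which the same values set, did not overlap between WT 1 h and KO 3 h and between KO 1 h and WT 12 h. The share of all genes with such gaps was not counted. Mt1 had the same order of groups, from 51.6 CPM in KO 0 h to 526 CPM in WT 3 h livers, with an overlap between all neighbours. All neighbours overlapped for the 4 transporters too. The lowest and highest group means were KO 1 h (78.4 CPM) and WT 3 h (193 CPM) for Slc39a14 and KO 0 h (7.79 CPM) and WT 12 h (13.9 CPM) for Slc39a4. They were WT 0 h (24.7 CPM) and WT 3 h (37.3 CPM) for Slc30a1, and WT 0 h (9.62 CPM) and WT 1 h (21.3 CPM) for Slc30a10.

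Of 20 further genes of the SLC39 and SLC30 families 14 had enough counts to be tested. The 6 that were not tested (Slc39a2, Slc39a5, Slc39a12, Slc30a2, Slc30a3 and Slc30a8) had at most 13 counts in a library. None of the 14 was called between KO and WT livers at any time or in either genotype at 1 h. In KO livers 0 were called higher and 1 lower at 3 h, and 0 higher and 2 lower at 12 h; in WT livers none was called at 3 h, and 1 was called higher and 2 lower at 12 h. Of all genes, 3.64%, 4.84% and 13.7% were called lower in KO livers at 1, 3 and 12 h, and 4%, 6.85% and 12.2% in WT livers. Called higher at these times were 3.95%, 5.11% and 15.1% in KO livers and 4.09%, 7.28% and 13.4% in WT livers. Between KO and WT livers 0.0151%, 0.492%, 0.977% and 0.053% of all genes were called at 0, 1, 3 and 12 h. The median log2 change of the 14 genes was -0.27 in KO livers at 12 h and 0.01 in WT livers at 12 h, beside 0.00 and -0.01 over all genes tested.

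Slc39a9, which encodes ZIP9, fell in KO livers to 16.8 ± 0.82 CPM at 3 h and 16.6 ± 2.87 CPM at 12 h, against 27 ± 1.74 CPM at 0 h (SD, n = 3 each), log2 changes of -0.68 ± 0.15 (adjusted p = 0.0034, edgeR) and -0.71 ± 0.16 (adjusted p = 0.00129). In WT livers it fell to 15.4 ± 3.79 CPM at 12 h, against 23.9 ± 1.18 CPM at 0 h (-0.62 ± 0.17, adjusted p = 0.00561). Slc30a9 fell in KO livers at 12 h by 0.41 (adjusted p = 0.00612), to 32.4 ± 1.5 CPM, against 43.3 ± 1.75 CPM at 0 h. Slc30a4, a vesicular zinc transporter, rose in WT livers at 12 h to 13.8 ± 1.16 CPM, against 9.38 ± 0.68 CPM at 0 h (0.54 ± 0.19, adjusted p = 0.0374). Slc39a13 fell in WT livers at 12 h by 0.81 (adjusted p = 0.0471), and Slc39a7, an importer into the cytosol from the endoplasmic reticulum, rose between 3 and 12 h in WT livers by 0.52 (adjusted p = 0.0337). Slc39a1, named by the same rule, was between 16.6 and 28 CPM in all libraries with no call.

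**Figure D5:**
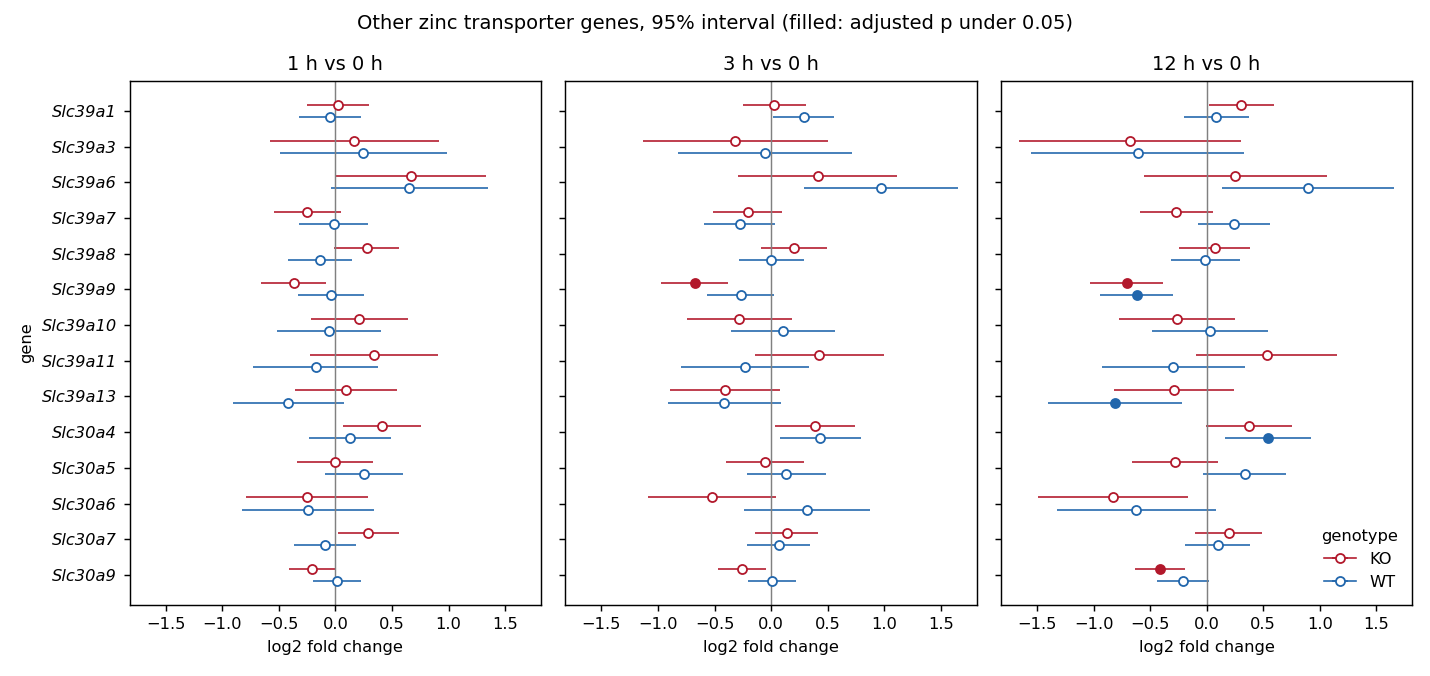
Log2 fold change against 0 h (horizontal axis) at 1, 3 and 12 h for 14 other zinc transporter genes, KO in red above WT in blue, with 95% intervals; filled points have an adjusted p under 0.05. Slc39a9 is the one gene filled in both genotypes at 12 h (-0.71 in KO and -0.62 in WT livers), and no point is filled at 1 h.

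Of 6 genes of metal sensing and other metallothioneins, 3 were tested. Mtf1, the metal-sensing activator of the metallothionein genes, was at 8.87 ± 1.70 CPM in KO and 8.33 ± 0.74 CPM in WT livers at 12 h and at 11.0 ± 1.15 CPM in KO and 10.3 ± 2.18 CPM in WT livers at 0 h, with no call. Mtf2 is, despite its name, a chromatin protein of the polycomb system. It rose in KO livers at 12 h by 0.50 (adjusted p = 0.0336, edgeR), the 1 call of the list. Of all genes 15.1% were called higher in KO livers at 12 h. Gpr39, a zinc-sensing receptor, stayed under 3 CPM with no call. Mt3 had 0 counts in all 24 libraries, Mt4 at most 1 count in a library and Zfp658 at most 9.

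Among 15 genes of copper, manganese and iron handling, 2 were called higher and 4 lower in KO livers at 12 h, and 3 higher and 2 lower in WT livers at 12 h. At 3 h 0 were called higher and 1 lower in KO livers, and 4 higher and 1 lower in WT livers. Of all genes, 15.1% were called higher and 13.7% lower in KO livers at 12 h, and 13.4% and 12.2% in WT livers. At 3 h it was 5.11% and 4.84% in KO and 7.28% and 6.85% in WT livers. Ftl1, a ferritin subunit that stores iron, rose at 12 h by 0.80 in KO (adjusted p = 1.06e-05, edgeR) and 0.64 in WT livers (adjusted p = 0.000265). Tfrc, the transferrin receptor, rose by 1.10 in KO (adjusted p = 0.000503) and 1.29 in WT livers (adjusted p = 0.000126). Slc40a1, the iron exporter ferroportin, fell by 1.57 in KO (adjusted p = 1.17e-06) and by 0.66 in WT livers (adjusted p = 0.0109). Slc31a1, the copper importer CTR1, fell by 0.70 in KO (adjusted p = 0.000103) and by 0.40 in WT livers (adjusted p = 0.0197). The median change of the 15 genes at 12 h was -0.04 in KO and -0.03 in WT livers.

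Of 12 oxidant and heat stress genes tested, 3 were called higher at 1 h in each genotype. At 3 h 5 were called higher in KO and 1 in WT livers, and at 12 h 6 in KO and 7 in WT livers. Called lower were 1 at each of the 3 times in KO livers and 1 at 3 h in WT livers. Over all genes, 3.95%, 5.11% and 15.1% were called higher at 1, 3 and 12 h in KO livers and 4.09%, 7.28% and 13.4% in WT livers. Called lower were 3.64%, 4.84% and 13.7% in KO livers at these times, and 6.85% in WT livers at 3 h. Hmox1, the heme oxygenase induced by oxidants, was at 37.3 ± 11.7 CPM in KO and 17.2 ± 11.4 CPM in WT livers at 1 h, at 87.1 ± 35.8 CPM in KO and 59.7 ± 31.2 CPM in WT livers at 3 h, and at 271 ± 81.5 CPM in KO and 240 ± 33 CPM in WT livers at 12 h. Gclc, an enzyme of glutathione synthesis, was higher in KO than in WT livers at 3 h by 0.78 (adjusted p = 0.0368, edgeR), at a time when Mt1 and Mt2 lay lower in KO livers. Osgin1 rose in KO livers at 1 h by 2.02 (adjusted p = 0.000131) and in WT livers at 1 h by 1.00 (adjusted p = 0.0374). Txnrd1, thioredoxin reductase, rose at 12 h by 1.12 in KO (adjusted p = 2.01e-09) and 1.12 in WT livers (adjusted p = 1.82e-09).

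Of 12 glucocorticoid-responsive genes, 2 were called higher and 2 lower in KO livers at 1 h, and 3 higher and 6 lower in WT livers at 1 h. At 12 h it was 4 and 3 in KO and 4 and 4 in WT livers. At 1 h 3.95% of all genes were called higher and 3.64% lower in KO livers, and 4.09% and 4% in WT livers. At 12 h the shares were 15.1% and 13.7% in KO and 13.4% and 12.2% in WT livers. Tsc22d3, a standard glucocorticoid target, fell in both genotypes, at 12 h by 2.06 in KO (adjusted p = 8.67e-08, edgeR) and by 1.29 in WT livers (adjusted p = 3.38e-05). At the same time Sgk1 rose by 1.77 in KO (adjusted p = 1.44e-10) and 2.24 in WT livers (adjusted p = 1.17e-12). Zbtb16 fell at 1 h by 0.62 in KO (adjusted p = 0.00136) and by 1.03 in WT livers (adjusted p = 1.83e-06). Dusp1, which many stress signals also induce, rose at 1 h by 1.60 in KO (adjusted p = 0.00288) and 2.15 in WT livers (adjusted p = 0.000358). None of the 12 was called between KO and WT livers at any time. Of all genes 0.0151%, 0.492%, 0.977% and 0.053% were called between the genotypes at 0, 1, 3 and 12 h. A further list of 9 hepatocyte enzymes and zinc carriers held zinc enzymes and also others, such as Fbp1. Of the 9 genes, 1 was called higher and 2 lower in KO livers at 12 h. In WT livers at 12 h 2 were called higher and none lower. The 12 h shares of all genes are those given above. Sord, a zinc enzyme, fell in KO livers by 1.04 (adjusted p = 0.00276), Fbp1 fell by 0.50 (adjusted p = 0.00582), and Alb, the main zinc carrier of plasma, rose by 0.38 in KO (adjusted p = 0.0405) and 0.66 in WT livers (adjusted p = 0.000754). Dpp3, a zinc peptidase, rose in WT livers at 3 h by 0.70 (adjusted p = 0.0105).

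In the acute phase list, Hp and Itih3 were lower in WT 3 h replicate 1 (662 and 448 CPM) than in the other WT 3 h livers (1490 and 1551 CPM for Hp, 1188 and 1528 CPM for Itih3). Hp, haptoglobin, was at 503 ± 49.1 CPM in KO and 1234 ± 496 CPM in WT livers at 3 h, a difference of -1.29 (adjusted p = 0.00149, edgeR). Itih3 was at 393 ± 32.2 CPM in KO and 1055 ± 552 CPM in WT livers (-1.42, adjusted p = 0.0175). Socs3, a feedback inhibitor of interleukin 6 signalling, was at 2.50, 2.40 and 2.02 CPM in KO and 7.71, 6.50 and 6.63 CPM in WT livers at 3 h, a difference of -1.59 (adjusted p = 0.0145), and at 12 h rose over 0 h by 3.14 in KO (adjusted p = 6.94e-11) and 4.21 in WT livers (adjusted p = 1.06e-12). Il6ra fell at 12 h by 0.59 in KO (adjusted p = 0.0121) and by 0.81 in WT livers (adjusted p = 0.000799).

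The genes most like the members in pattern were sought among 7396 tested genes with a mean of at least 5 CPM, by Pearson correlation of log2 CPM over the 24 libraries, which share groups and depth. Mt1 and Mt2 had the same first 3 genes: Rlf (0.948 with Mt1 and 0.953 with Mt2), Dgke (0.923 and 0.918) and Srrm4 (0.919 and 0.927). Rlf, a zinc finger protein, was at 20.3 ± 1.38 CPM in KO and 21.2 ± 3.53 CPM in WT livers at 0 h. At 1 h it was at 34.2 ± 3.74 CPM in KO and 29.2 ± 3.46 CPM in WT livers, at 3 h at 34.2 ± 1.29 CPM in KO and 40.3 ± 1.43 CPM in WT livers, and at 12 h at 41.1 ± 5.24 CPM in KO and 34 ± 1.51 CPM in WT livers. Over the step between 1 and 3 h it rose in WT livers by 0.46 (adjusted p = 0.0197, edgeR). For that step in KO livers edgeR called 0% of the tested genes. Genes of this search were picked by likeness over these same libraries, so their changes are not independent of those of the members. Srrm4 and Dgke were called higher than at 0 h in both genotypes at each later time.

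For Slc39a14 the leading genes were Stat3 (0.805), the transcription factor downstream of interleukin 6, Il17ra (0.798) and Larp4b (0.792). Stat3 was at 43.4 ± 3.95 CPM in KO and 80.4 ± 25.9 CPM in WT livers at 3 h, a difference of -0.89 ± 0.19 (adjusted p = 0.0236). Il17ra, a receptor subunit for interleukin 17, was at 5.74 ± 0.51 CPM in KO and 11.6 ± 1.98 CPM in WT livers at 3 h (-1.0 ± 0.22, adjusted p = 0.017). For Slc30a1 they were Serinc3 (0.858), Dgke (0.845) and Grn (0.842), the gene of progranulin. For Slc30a10 they were Paics (0.863), an enzyme of purine synthesis, H4c4 (0.795), a histone gene, and Tpi1 (0.786), a glycolytic enzyme. Paics had its highest group means at 1 h too, 79.9 ± 20.4 CPM in KO and 84.0 ± 14.3 CPM in WT livers.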

How the data were processed

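RNA of 24 mouse livers was sequenced, 3 for each genotype and time. The values are raw gene counts as deposited by the authors, who used STAR and build mm39 per the submitters' processing notes; version, annotation and treatment of multimapping reads: not given in the sources used here. Counts on genes made up 17.6% to 22.5% of all reads; the 4 lines of each file that name no gene held the rest and were left out. The unstranded column was used; 98.9% to 99.9% of the stranded counts of each of the 6 genes lay on its own strand. The members and gene lists were chosen with earlier results of these data known.

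The fit used edgeR 4.0.16 in R 4.3.3: filterByExpr on 8 groups (13204 genes kept), TMM scaling, and a robust quasi-likelihood fit with 1 mean per group to all 24 libraries. Tests were two-sided, with Benjamini-Hochberg adjustment over all kept genes and a threshold of 0.05. Intervals are the estimate ± 1.96 SE. Nothing in the labels says how mice were housed or paired, and 3 against 3 libraries could not reach a p below 0.1 in an exact permutation test, so no such test is given. From each list up to 4 genes with the smallest p in any response or KO vs WT comparison are named, called or not, together with genes singled out for calls after their values were seen (Slc39a7, Slc39a13). Correlations used log2 CPM with a prior count of 2. Chi-squared per degree of freedom between replicates was 2.23 to 21.6, so no pair was treated as a duplicate. Alternatives were RLE scaling, library size alone, DESeq2 1.42.0, other filters (none, or at least 1 CPM in 3 libraries), a fit of only the groups compared, a replicate block, the gene-strand column, removal of mitochondrial ribosomal RNA, and leaving out each library, or WT 3 h replicates 2 and 3 together.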

Additional observations from a re-analysis of the deposited data

Results flagged for a closer look

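The step of Mt2 from 1 to 3 h was smaller in KO than in WT livers by 2.25 on the log2 scale (-2.25 ± 0.44, adjusted p = 0.0162, edgeR), a difference between the genotypes in a comparison added after the levels had been seen. Over that step Mt2 changed by -0.07 ± 0.31 in KO livers and by 2.18 ± 0.32 in WT livers. The KO livers of 3 h (324 to 396 CPM) lay within the KO range of 1 h (305 to 473 CPM), and each WT liver of 3 h (645 to 788 CPM) lay above each of 1 h (95.8 to 251 CPM). As given above, the acute phase level was high in WT 3 h replicates 2 and 3 but not in WT 3 h replicate 1. Red blood cell and Kupffer cell sums varied among the WT 3 h livers too, at 80.1 to 331 CPM and 77.4 to 174 CPM. The part of these genes in the difference was not tested.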

How the results depend on the processing

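Under all alternatives, 1834 changes of the 6 genes kept their side of the threshold, 57 lost and 28 gained a call. Uncalled values that changed direction by no more than their SE are among the 1834. A further 13 uncalled values changed direction by more than their SE, and no called value changed direction. The metallothionein responses at 3 and 12 h passed under each alternative in both genotypes. Limits are few counts for Slc39a4 and Slc30a10, 3 mice a group, and the WT 3 h livers. For the replicate number as a block, same-numbered mice correlated at -0.17 to 0.18 and in 0 of 14 comparisons did all 3 pairs exceed 0.1. Correlations this low do not exclude a pairing or batch shared by number, and the labels name none. The replicate block moved no count of the 6 genes. It gave 9 genes for KO vs WT at 0 h, against 2 in the main fit. For the difference of responses at 3 and 12 h it gave 34 and 5, against 20 and 3. The causes of the shifts below were not tested.

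Of the 6 genes, DESeq2 called 2 for KO 1 h vs 0 h, 1 each for KO vs WT at 1 and 3 h, KO 12 h vs 3 h, WT 12 h vs 3 h and the 1 h difference of responses, and 2 for the 1 to 3 h difference of steps. Fits of only the groups compared called 2 each for KO vs WT at 3 h, KO 12 h vs 3 h and the 3 to 12 h difference of steps, 1 each for KO and WT 1 h vs 0 h, and 0 for WT 12 h vs 3 h. Library size alone called 2 for KO 1 h vs 0 h and 1 for WT 12 h vs 3 h, RLE scaling 1 for KO 12 h vs 3 h, the gene-strand column 1 each for KO and WT 12 h vs 3 h, and no low-count filter 1 for WT 1 h vs 0 h. Without WT 3 h replicates 2 and 3, 2 were called for WT 3 h vs 0 h, 1 for WT 3 h vs 1 h, 0 for WT 12 h vs 3 h and 0 for the 1 to 3 h difference of steps. Leaving out 1 library at a time gave 2 to 3 for KO 1 h vs 0 h, 1 to 2 for WT 1 h vs 0 h, 0 to 2 for WT 12 h vs 3 h and for the 1 to 3 h difference of steps, and 0 to 1 for KO 12 h vs 3 h, KO vs WT at 1 h and the 1 h difference of responses.

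Counts over all genes moved as follows. For KO vs WT at 0, 1, 3 and 12 h no filter gave 95, 230, 254 and 78, the groups compared alone 13, 39, 44 and 24, and leaving out 1 library 1 to 14, 16 to 104, 9 to 335 and 0 to 34; DESeq2 gave 24, 98 and 22 at 0, 1 and 12 h, the gene-strand column 1 and 2 at 0 and 12 h, and removal of WT 3 h replicates 2 and 3 gave 28 at 3 h. For the difference of responses at 1, 3 and 12 h no filter gave 217, 159 and 79, DESeq2 112, 85 and 29, and leaving out 1 library 15 to 83, 6 to 142 and 1 to 15; at 12 h it was 1 with library size alone, 5 with at least 1 CPM in 3 libraries, 9 with the groups compared alone and 0 with the gene-strand column. For the differences of steps from 1 to 3 h and from 3 to 12 h no filter gave 375 and 129, DESeq2 319 and 63, removal of WT 3 h replicates 2 and 3 gave 50 and 12, and leaving out 1 library 69 to 460 and 3 to 147; the groups compared alone gave 115 for the first, and library size alone 12 and the gene-strand column 7 for the second. For KO 3 h vs 1 h no filter gave 61, at least 1 CPM in 3 libraries 4, DESeq2 10, the groups compared alone 1 and leaving out 1 library 0 to 25. Library size alone gave 5324 for WT 12 h vs 0 h, of which 17.6% were higher (52.4% with TMM), 4801 for KO 12 h vs 0 h (26.3%, against 52.3%), 3085 for WT 12 h vs 3 h (19.6%, against 58.0%) and 2783 for KO 12 h vs 3 h (22.6%, against 60.8%). The groups compared alone gave 1198 for WT 3 h vs 0 h and 458 for WT 3 h vs 1 h, and removal of WT 3 h replicates 2 and 3 gave 1027, 209 and, for WT 12 h vs 3 h, 704. Leaving out 1 library gave 567 to 1205 for KO 1 h vs 0 h, 715 to 1052 for KO 3 h vs 0 h, 684 to 800 for WT 1 h vs 0 h and 370 to 931 for WT 3 h vs 1 h.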
